A study of Mus musculus with 6 samples.

Results

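Transcripts of 8 hepatocyte transcription factors were read in 6 mouse liver tumor-derived cell lines. The members were the 8 rows of the deposited expression table, out of 20856 with values, whose gene symbol was *Hnf4a*, *Foxa1*, *Foxa2*, *Foxa3*, *Cebpa*, *Onecut1*, *Nr1h4* or *Prox1*, so their levels played no part in the rule. Each line was grown from a tumor started in the liver of a young adult female C57BL/6 mouse by hydrodynamic tail vein injection, in which plasmids given in a large volume enter hepatocytes. All tumors carried a *Myc* transposon and a px330 plasmid with Cas9 and a guide RNA, directed at *Trp53* in 3 lines (*Myc*; sg*Trp53*) and at *Kmt2c*, which encodes MLL3, in the other 3 (*Myc*; sg*Kmt2c*). No line had both targets intact by design, and lines of a genotype are separate tumors that are not isogenic, so a difference between single lines cannot be assigned to the guide. The cells received no other treatment, were kept on collagen in serum-containing medium and were passaged until fibroblasts were no longer seen.

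The hepatocyte program is held by a small set of transcription factors that bind each other's promoters and enhancers as well as those of liver genes. HNF4A, a nuclear receptor, activates genes of lipoprotein, coagulation and bile acid metabolism. The FOXA proteins are pioneer factors that open chromatin for the others during liver specification and partly stand in for each other. C/EBPα drives metabolic genes and restrains proliferation, HNF6 (*Onecut1*) acts in hepatoblasts and biliary cells, FXR (*Nr1h4*) senses bile acids, and PROX1 is needed for hepatoblast migration and represses parts of the bile acid program. Loss of *Hnf4a* is a known mark of dedifferentiation in liver cancer.

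Values are RPKM, reads scaled to the length listed for the gene and to the reads on genes in the library. They came in whole multiples of a single read, so the reads behind each value were recovered: 5312182 to 6878625 per sg*Trp53* library and 3680068 to 4704539 per sg*Kmt2c* library. Intervals on single lines are 95% Poisson intervals and cover counting error only. The libraries lay on the side of their label for *Trp53*, 17.2 to 19.4 RPKM where it was targeted and 92.2 to 124 RPKM where it was not, while *Kmt2c* transcript overlapped between the genotypes (18.4 to 24.2 against 9.51 to 24.97 RPKM). Of 11617 genes with at least 1 RPKM in at least 3 libraries, limma on log2(RPKM + 1) called 15, or 0.129%, as different by genotype (adjusted p-value under 0.05). In sg*Kmt2c* replicate 1 the expression of many genes stood apart: 11.8% of the 13401 genes with at least 1 RPKM in a library were higher there than the mean of the other 5 lines by at least 1 on the log2(RPKM + 1) scale, and 13.4% were lower by as much, against 1.86% to 6.67% in each direction in the other lines.

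The largest differences among the members lay in *Hnf4a* and the *Foxa* genes, so the promoters of *Hnf4a*, *Foxa1* and *Foxa2* are shown, each from 250 bases before to 50 bases after a transcription start (RefSeq, GRCm38.p6, 5′ to 3′ on the strand of the gene). Capitals mark matches, on either strand, to the core letters of factors of this network. These were TGTTTAC for FOXA, CAAAGTC for HNF4, ATTGAT for HNF6, TTGCNNAA for C/EBP and the E-box CACGTG. *Hnf4a* has a pair of starts 40.3 kb apart. The downstream promoter, P1, is the start of the adult hepatocyte and the upstream promoter, P2, is known from fetal liver, pancreas and gut, but the deposited values are per gene and do not separate them. The sequences lie at chr2:163506607-163506906 (+) for the upstream *Hnf4a* start, chr12:57546062-57546361 (-) for *Foxa1* and chr2:148046920-148047219 (-) for *Foxa2*.
*Hnf4a* upstream: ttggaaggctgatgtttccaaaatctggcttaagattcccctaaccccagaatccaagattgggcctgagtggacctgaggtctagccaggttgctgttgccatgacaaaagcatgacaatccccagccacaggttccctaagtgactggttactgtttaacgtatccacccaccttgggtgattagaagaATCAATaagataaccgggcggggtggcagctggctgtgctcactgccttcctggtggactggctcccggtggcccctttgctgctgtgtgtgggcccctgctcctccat
*Foxa1*: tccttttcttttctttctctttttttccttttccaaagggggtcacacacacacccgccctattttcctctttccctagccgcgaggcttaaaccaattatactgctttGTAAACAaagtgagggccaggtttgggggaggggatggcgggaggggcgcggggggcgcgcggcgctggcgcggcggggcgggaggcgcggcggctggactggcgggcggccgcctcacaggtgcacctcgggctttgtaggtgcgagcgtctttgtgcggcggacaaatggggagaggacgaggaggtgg
*Foxa2*: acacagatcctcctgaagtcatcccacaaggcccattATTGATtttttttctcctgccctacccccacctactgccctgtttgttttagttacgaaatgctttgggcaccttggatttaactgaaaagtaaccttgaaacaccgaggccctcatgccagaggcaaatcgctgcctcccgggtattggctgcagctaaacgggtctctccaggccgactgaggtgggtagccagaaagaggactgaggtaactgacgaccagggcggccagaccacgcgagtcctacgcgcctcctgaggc

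The capitals in the upstream *Hnf4a* promoter and in the *Foxa2* promoter shown are the HNF6 core, which 7.54% of the 32851 promoters in the table hold. The downstream *Hnf4a* promoter, at chr2:163546905-163547204 (+), held none of the letters searched and is not shown. The same holds for the other *Foxa2* promoters, at chr2:148045899-148046198 (-) and chr2:148045415-148045714 (-). In the *Foxa1* promoter the match was the FOXA core, found in 3.65% of promoters. All 8 members were matched, with 12 promoters in all. The E-box (7.15% of promoters) was present at *Onecut1*. No match to the HNF4 core (4.44%) or the C/EBP core (10.8%) was present in any of the 12, which says only that these letters are not in these windows.

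*Hnf4a* had the widest range of the 8 members in RPKM. Across sg*Trp53* replicates 1, 2 and 3 it was listed at 24.7, 3.49 and 15.8 RPKM, and across sg*Kmt2c* replicates 1, 2 and 3 at 1186, 0.629 and 170 RPKM. The highest and the lowest line were thus both sg*Kmt2c* lines, and the sg*Trp53* lines lay between them. These values rest on 65, 8 and 47 reads and on 2409, 1 and 313 reads. sg*Kmt2c* replicate 1 exceeded the next line, sg*Kmt2c* replicate 3, by 6.98-fold (counting interval 6.20 to 7.88). In the order of the lines, sg*Trp53* replicates 1 and 3 had overlapping counting intervals, as did sg*Trp53* replicate 2 and sg*Kmt2c* replicate 2, and the other neighbors did not. The table divides *Hnf4a* reads by a length of 431 bases, against 4362 for its longest coding transcript in GENCODE M1, so the RPKM overstates the level against other genes by about 10.1-fold. Per the longer length *Hnf4a* lay at 117 RPKM in sg*Kmt2c* replicate 1, 16.8 in sg*Kmt2c* replicate 3 and 0.0622 to 2.44 in the other 4 lines. Ratios between lines are not touched by the length, but differences and SDs of log2(RPKM + 1) depend on it, and below they use the listed length. The gene (GRCm38 chr2:163506808-163572910) overlaps the antisense gene *Hnf4aos*, and the use of strand in counting was not stated, so reads of the pair cannot be told apart.

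The FOXA family was made up differently in sg*Kmt2c* replicate 1. *Foxa1* measured 18.1, 23.7 and 27.9 RPKM across the sg*Trp53* lines, against 0.133, 31.1 and 52.5 RPKM across the sg*Kmt2c* lines. It was close to absent in sg*Kmt2c* replicate 1, with 2 reads, and had 352 to 716 reads in each of the other 5 lines. The lowest of those 5, sg*Trp53* replicate 1, exceeded it by 136-fold (counting interval 37.4 to 1127), while the 5 themselves spanned 18.1 to 52.5 RPKM. Among them only sg*Trp53* replicate 3 had an interval that overlapped those of its neighbors, sg*Kmt2c* replicate 2 above and sg*Trp53* replicate 2 below.

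*Foxa2*, the member that acts earliest in endoderm, had the reverse pattern. Its values were 0.0792, 0.0908 and 0.771 RPKM across the sg*Trp53* lines (1, 1 and 11 reads), and 23.6, 0.131 and 0.339 RPKM across the sg*Kmt2c* lines (230, 1 and 3 reads). A single line was high and the intervals of the other 5 overlapped from each line to the next. The ratio of sg*Kmt2c* replicate 1 to the next line, sg*Trp53* replicate 3, was 30.6 (counting interval 16.8 to 62.1). *Foxa3*, which is expressed in the mature liver, measured 0.685, 0.589 and 0.379 RPKM across the sg*Trp53* lines, against 8.64, 0.142 and 0 RPKM across the sg*Kmt2c* lines. Here too sg*Kmt2c* replicate 1, with 78 reads, stood alone above lines with 0 to 8 reads, 12.6-fold over sg*Trp53* replicate 1 (counting interval 6.10 to 30.3). The 0 in sg*Kmt2c* replicate 3 allows up to 3 reads.

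Of the summed RPKM of the 3 *Foxa* genes, *Foxa1* made up 95.9% to 99.4% in 5 lines and 0.411% in sg*Kmt2c* replicate 1. There *Foxa2* gave 72.9% and *Foxa3* 26.7%. The summed level in that line, 32.4 RPKM, lay within the range of the other 5 lines, 18.9 to 52.9 RPKM.

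**Figure D1:**
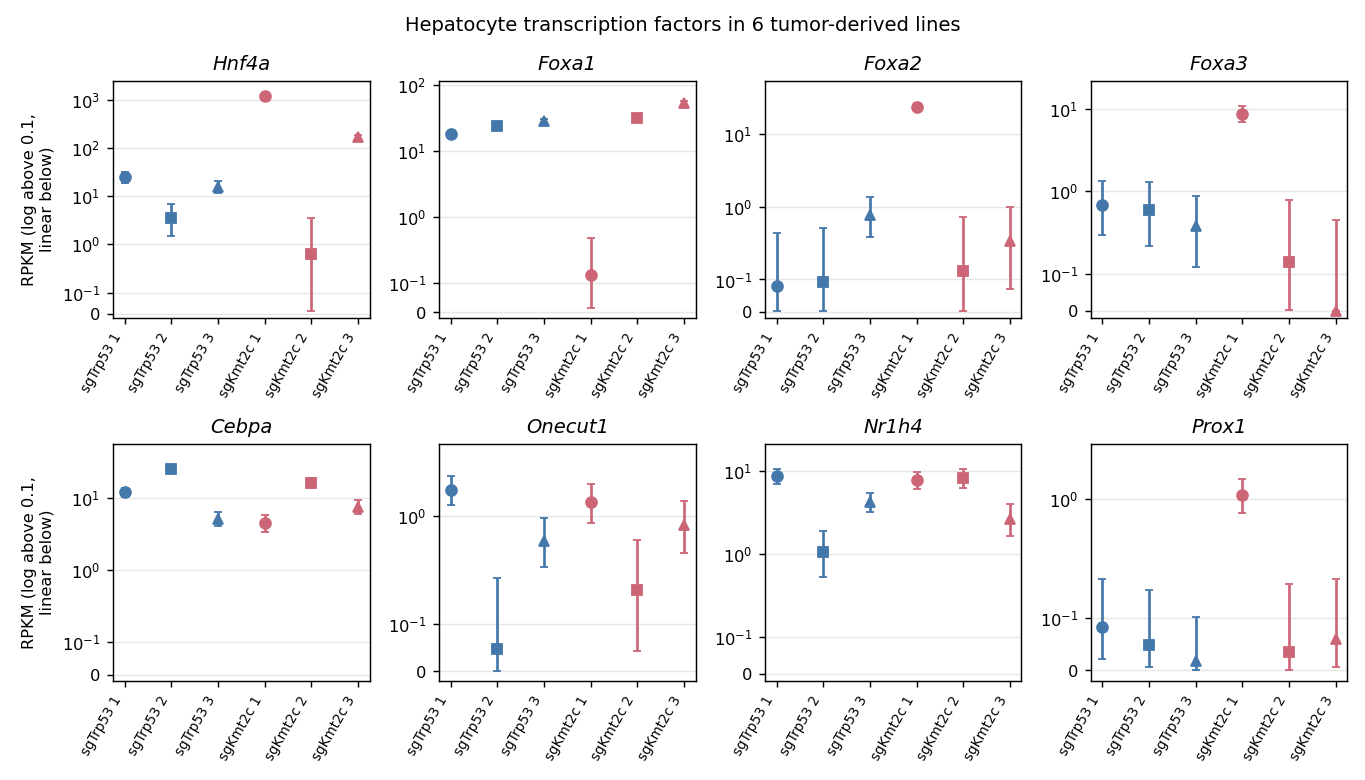
RPKM of the 8 transcription factors (panels) in the 3 sg*Trp53* lines (blue) and the 3 sg*Kmt2c* lines (red), with circles, squares and triangles for replicates 1, 2 and 3 and bars for 95% Poisson intervals of the reads (logarithmic axis above 0.1 RPKM, linear below; the range differs between panels). *Hnf4a*, *Foxa2*, *Foxa3* and *Prox1* are highest in sg*Kmt2c* replicate 1, at 1186, 23.6, 8.64 and 1.07 RPKM, and *Foxa1* is lowest there at 0.133 RPKM.

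**Figure D2:**
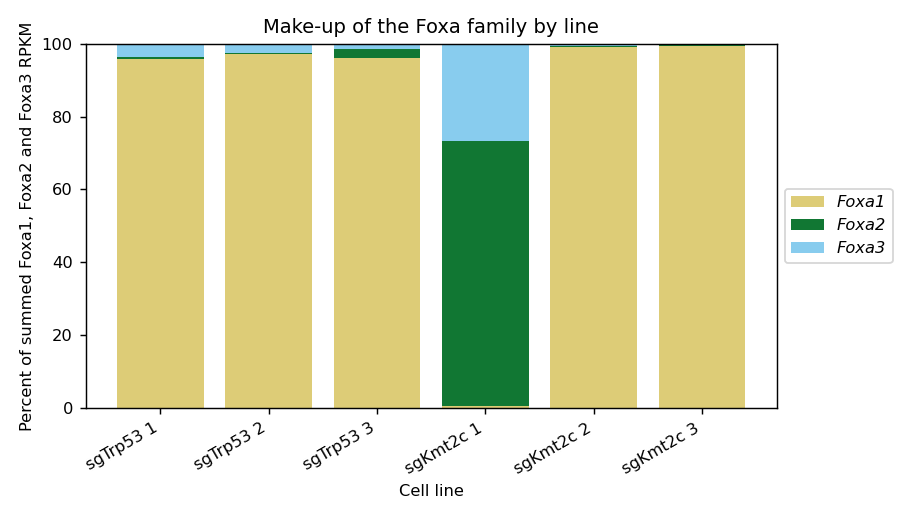
Share of the summed *Foxa1*, *Foxa2* and *Foxa3* RPKM (percent, bars stacked to 100) in each of the 6 lines. *Foxa1* fills at least 95.9% of the bar in 5 lines and 0.411% in sg*Kmt2c* replicate 1, where *Foxa2* fills 72.9% and *Foxa3* 26.7%.

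*Cebpa* was detected at 4.51 RPKM or more in every line. Its levels were 11.9, 25.3 and 5.12 RPKM across the sg*Trp53* lines, against 4.51, 16.3 and 7.46 RPKM across the sg*Kmt2c* lines. The genotypes interleaved, with sg*Trp53* replicate 2 highest and sg*Kmt2c* replicate 1 lowest. The lowest 2 lines, sg*Kmt2c* replicate 1 with 56 reads and sg*Trp53* replicate 3 with 93, had overlapping counting intervals (ratio 0.880, interval 0.620 to 1.24). *Cebpa* therefore did not share the pattern of *Hnf4a*: sg*Kmt2c* replicate 2, with the lowest *Hnf4a*, had the second highest *Cebpa*.

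*Nr1h4*, which encodes the bile acid receptor FXR, was read at 8.52, 1.05 and 4.14 RPKM across the sg*Trp53* lines, against 7.67, 8.15 and 2.62 RPKM across the sg*Kmt2c* lines. The highest 3 lines came from both genotypes, and their counting intervals overlapped from each to the next. sg*Trp53* replicate 2, with 11 reads, was lowest, and sg*Kmt2c* replicate 1 exceeded it by 7.29-fold (counting interval 3.84 to 15.3).

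*Onecut1* was low in all lines, at 1.74, 0.0475 and 0.587 RPKM across the sg*Trp53* lines, against 1.34, 0.206 and 0.828 RPKM across the sg*Kmt2c* lines, from 1 to 42 reads. Every line's counting interval overlapped that of its neighbor in the order. *Prox1* measured 0.0829, 0.0475 and 0.0183 RPKM across the sg*Trp53* lines, against 1.07, 0.0343 and 0.0591 RPKM across the sg*Kmt2c* lines. Only sg*Kmt2c* replicate 1, with 40 reads, was above 4 reads, and it exceeded sg*Trp53* replicate 1 by 12.9-fold (counting interval 4.68 to 49.8). *Onecut1* overlaps the RefSeq genes *Gm33562* and *Gm38678*, and *Prox1* overlaps *Prox1os*, with the same limit on strand as for *Hnf4a*.

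The order of the members within a line, taken per GENCODE M1 length, also differed. *Hnf4a* led in sg*Kmt2c* replicate 1 at 117 RPKM, ahead of *Foxa2* at 22.9, *Foxa3* at 8.13 and *Nr1h4* at 7.49. *Foxa1* led in the other sg*Kmt2c* lines, at 31.1 RPKM in replicate 2 and 52.5 RPKM in replicate 3. In the sg*Trp53* lines *Foxa1* and *Cebpa* were the highest pair, at 18.1 and 11.9 RPKM in replicate 1, 23.7 and 25.3 RPKM in replicate 2, and 27.9 and 5.12 RPKM in replicate 3.

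Between the genotypes no member differed past the threshold. The 4 members that reached at least 1 RPKM in at least 3 libraries entered the fit, and 0 of 4 had an adjusted p-value under 0.05 (0.129% of all genes tested) or an unadjusted p-value under 0.05 (8.58%), with limma on log2(RPKM + 1) or with voom on the recovered reads. In 0 of these 4 members did the lines of the genotypes separate, against 16.2% of the genes tested. They did not separate in the members outside the fit either, which are not part of that share. *Hnf4a* averaged 14.7 ± 10.7 RPKM across the sg*Trp53* lines, against 452 ± 641 RPKM across the sg*Kmt2c* lines (SD, n = 3 each). Its log2 fold change, sg*Kmt2c* over sg*Trp53*, was 2.47 (95% interval -2.96 to 7.90, adjusted p = 0.754, limma). *Foxa1* averaged 23.2 ± 4.90 and 27.9 ± 26.3 RPKM (SD, n = 3 each), with a log2 fold change of -0.94 (95% interval -4.21 to 2.34, adjusted p = 0.836, limma). The means and the log2 fold change of *Foxa1* differ in direction, with 1 line near 0. Without sg*Kmt2c* replicate 1 the log2 fold change of *Foxa1* was 0.79 (unadjusted p under 0.05, adjusted p = 0.519, limma) and that of *Hnf4a* was 0.42. With sg*Kmt2c* replicates 2 and 3, labelled 2A and 2T1, averaged as 1 sample, *Hnf4a* had a log2 fold change of 4.68 (unadjusted p under 0.05, adjusted p = 0.522, limma) and *Foxa1* of -1.78. Without sg*Kmt2c* replicate 2 that of *Hnf4a* was 5.17 (unadjusted p under 0.05, adjusted p = 0.342, limma), and voom gave -2.00 for *Foxa1*.

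For *Cebpa* the genotype means were 14.1 ± 10.2 and 9.41 ± 6.12 RPKM (SD, n = 3 each) and the log2 fold change was -0.45 (95% interval -1.96 to 1.05, adjusted p = 0.824, limma). For *Nr1h4* they were 4.57 ± 3.75 and 6.15 ± 3.06 RPKM, with a log2 fold change of 0.51 (95% interval -1.02 to 2.03, adjusted p = 0.810, limma). Without sg*Trp53* replicate 2 both were close to 0, at 0.07 for *Cebpa* and -0.08 for *Nr1h4*. The median log2 fold change of the 4 members was 0.03, beside -0.09 over all genes tested. Over all 8 members, with no filter on low values, it was 0.42, beside -0.02. The intervals are wide, so differences of several fold in either direction were not detectable with 3 lines per genotype. The remaining members, *Foxa2*, *Foxa3*, *Onecut1* and *Prox1*, reached 1 RPKM in at most 2 libraries. Exact two-sided permutation tests of log2(RPKM + 1), which cannot go under 0.1 with 3 lines against 3, gave p = 0.5, 1.0, 1.0 and 0.6 for them.

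The spread among lines of a genotype was the larger feature. The within-genotype SD of log2(RPKM + 1) was 3.58 for *Hnf4a* on its short listed length, higher than in 99.9% of the genes tested. It was 2.15 for *Foxa1*, higher than in 98.9%. *Cebpa* and *Nr1h4*, both with an SD of 0.95, exceeded 88.9% and 89.0% of genes.

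Each line was next set against the mean of the other 5 on the log2(RPKM + 1) scale, where a difference of at least 1 was called high or low. A single line has no replicate, so this comparison has no test. In sg*Kmt2c* replicate 1, 3 of 8 members were high (*Hnf4a* by 6.40, *Foxa2* by 4.29 and *Foxa3* by 2.85), where 11.8% of all genes were, and 2 of 8 were low (*Foxa1* at -4.72 and *Cebpa* at -1.18), where 13.4% were. *Prox1* lay just inside the limit at 0.98. *Foxa2*, *Foxa3* and *Prox1* reached 1 RPKM only in this line, so they are among the genes compared only because they were high there.

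The other lines had fewer members beyond the limit or only low ones. sg*Kmt2c* replicate 3 was high for *Hnf4a* by 3.05 and for *Foxa1* by 1.96 (2 of 8, where 3.85% of all genes were high) and low for *Foxa3* (1 of 8, where 3.49% were low). sg*Kmt2c* replicate 2 was high for *Foxa1* by 1.07 (1 of 8, against 6.16%) and low for *Hnf4a* at -5.01 and *Foxa2* at -1.04 (2 of 8, against 6.67%). sg*Trp53* replicate 2 was high for *Cebpa* by 1.52 (1 of 8, against 5.78%) and low for *Hnf4a* at -3.25, *Nr1h4* at -1.72 and *Foxa2* at -1.11 (3 of 8, against 6.38%). sg*Trp53* replicate 1 had no high member (against 4.43%) and was low for *Foxa2* alone (1 of 8, against 3.65%), and sg*Trp53* replicate 3 had neither (against 5.13% and 1.86%). The low calls of *Foxa2* in 3 lines compare 1 read with a mean that includes sg*Kmt2c* replicate 1. The same line, with 2 reads of *Foxa1*, is in the mean behind the high calls of *Foxa1* in sg*Kmt2c* replicates 2 and 3. For *Foxa1* the counting interval of sg*Kmt2c* replicate 2 overlapped that of sg*Trp53* replicate 3. The low call of *Foxa3* in sg*Kmt2c* replicate 3, at 0 reads, is against a mean that includes sg*Kmt2c* replicate 1 with 78 reads.

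**Figure D3:**
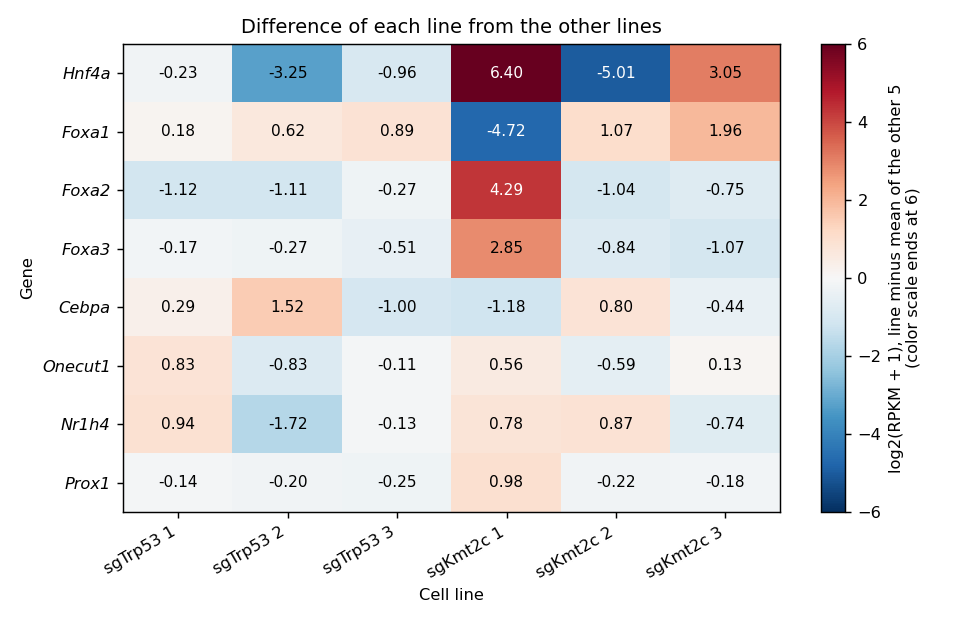
Difference of log2(RPKM + 1) in each line (columns) from the mean of the other 5 lines, for the 8 transcription factors (rows), in color and as the printed value. sg*Kmt2c* replicate 1 has the highest values, 6.40 for *Hnf4a* and 4.29 for *Foxa2*, and -4.72 for *Foxa1*. The lowest value is *Hnf4a* in sg*Kmt2c* replicate 2 at -5.01, which rests on 1 read and on the short listed length. *Onecut1* stays within 1 in every line.

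Other factors of the liver network that were high in sg*Kmt2c* replicate 1 included *Nr1i2*, the xenobiotic receptor PXR, at 19.2 RPKM against 0 to 0.385 in the other lines. *Creb3l3*, a regulator of triglyceride metabolism, lay at 7.12 against 0 to 0.816 RPKM. In all, 10 of the 22 network genes were high there, where 11.8% of all genes were, and 3 were low (*Cebpd*, *Klf15* and *Tbx3*), where 13.4% were. Of the 22, 19 reached 1 RPKM in a library. Among the 10, *Nr1i2*, *Creb3l3* and *Hnf4g* reached 1 RPKM only in that line. Among the network genes with the highest means, *Atf5* was at 150 RPKM against 13.4 to 35.9 in the other lines and *Cebpb* at 123 against 38.6 to 74.7 RPKM, whereas *Rxra*, the partner of FXR, was at 113 within 72.3 to 254 RPKM. In sg*Kmt2c* replicate 2, 7 of the 22 were low, against 6.67% of all genes, and 4 high, against 6.16%. Between the genotypes, 12 of the 22 could be tested and 0 passed an adjusted p-value of 0.05 (limma, lowest 0.528, and 0 with voom). At an unadjusted p-value under 0.05 there was 1 of the 12, near the share of 8.58% over all genes tested. This was *Nr1h3*, which encodes the oxysterol receptor LXRα. It measured 2.48, 1.42 and 1.32 RPKM across the sg*Trp53* lines, against 32.6, 8.06 and 3.30 RPKM across the sg*Kmt2c* lines. It was the 1 gene of the 12 whose groups did not overlap, against 16.2% of all genes, and the log2 fold change was 2.02 (SE 0.72, adjusted p = 0.528, limma). The median log2 fold change of the 12 was 0.42, beside -0.09 over all genes tested.

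Genes of mature hepatocyte function were mixed in the same line. Of 30 hepatocyte targets, 22 reached 1 RPKM in a library. In sg*Kmt2c* replicate 1, 13 were high, where 11.8% of all genes were, and 2 were low, *Ass1* of the urea cycle and *Ahsg*, where 13.4% were. Among the 13, *Apoc3*, *F2* and *Cps1* reached 1 RPKM only there. *Apob*, the structural protein of lipoproteins, lay at 4385 RPKM there, 129 in sg*Kmt2c* replicate 3 and 0.243 in sg*Kmt2c* replicate 2, against 11.8 to 48.8 in the sg*Trp53* lines. Its listed length of 1118 bases is also short, so the level is inflated while the ratios are not. The lines had the same order for *Hnf4a* and *Apob*, except that sg*Trp53* replicates 1 and 3 changed places. *Hpx*, the heme carrier of plasma, lay at 100 RPKM in sg*Kmt2c* replicate 1 against 0 to 2.44 elsewhere, and *Trf*, transferrin, at 72.5 against 0.464 to 8.36 RPKM. *Fabp1*, the liver fatty acid binding protein, lay at 22.6 against 0 to 2.96 RPKM.

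*Alb*, the defining product of hepatocytes, stayed low in every line, at 4.36 RPKM in sg*Kmt2c* replicate 1 and 0.644 to 1.60 RPKM in the others. *G6pc* of gluconeogenesis had no read in any library. *Cps1* was at 1.38 RPKM in sg*Kmt2c* replicate 1 and at most 0.0842 elsewhere, and *Otc*, *Tdo2* and *Mat1a* reached at most 0.153 RPKM in any line. *Ass1*, the highest hepatocyte target after *Apob* by mean, lay at 89.9 and 27.4 RPKM in sg*Kmt2c* replicates 2 and 3 and at 1.26 to 3.68 RPKM in the other 4 lines. In all, 8 of the 30 were under 1 RPKM in every line. Over all genes, 13401 of 20856 reached 1 RPKM in a library, so this count does not set the list apart. The labels call the material liver tumor cell lines. *Alb*, *G6pc*, *Cps1*, *Otc*, *Tdo2* and *Mat1a* stayed at or under 4.36 RPKM in all of them. Other targets on the list reached more, with *Hp* at 2.22 to 50.5 RPKM across the lines and *Fgb* at 0.0712 to 32.5 RPKM. Between the genotypes 9 of the 30 could be tested, and 0 passed at the adjusted or the unadjusted threshold (limma, lowest adjusted p = 0.600, and 0 past the adjusted threshold with voom). Their median log2 fold change was 0.60.

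**Figure D4:**
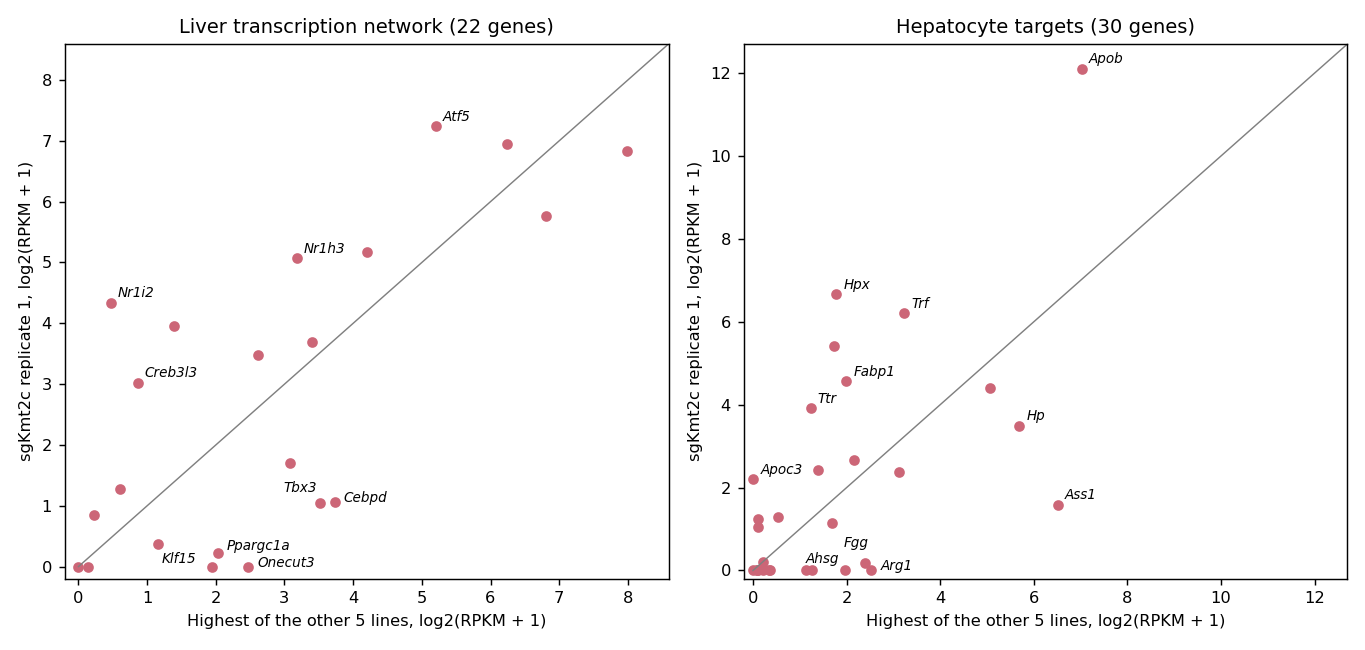
Level in sg*Kmt2c* replicate 1 against the highest of the other 5 lines, both as log2(RPKM + 1), for the 22 liver network factors (left) and the 30 hepatocyte targets (right), with the line of equal level in grey and names for some genes with a difference of at least 1.5. *Nr1i2* and *Creb3l3* lie far above the line at left and *Apob*, *Hpx* and *Trf* at right, while *Ass1* lies below it.

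Most of the bile acid genes tied to FXR were low in every line, while *Nr1h4* itself was read in every line. The genes of this list need not follow FXR in the same direction, and the activity of FXR was not tested. Of the 12 bile acid genes, 9 were under 1 RPKM in every line, and none entered the genotype test. Over all genes, 13401 of 20856 reached 1 RPKM in a library. *Nr0b2*, which encodes SHP and is the classical FXR target, had no read in any library, which allows up to 3 reads in each. *Cyp7a1*, the rate-limiting enzyme of bile acid synthesis, reached at most 0.0393 RPKM and *Abcb11*, the bile salt export pump, at most 0.130 RPKM. The exceptions were *Abcc2*, a canalicular conjugate exporter, at 114 RPKM in sg*Kmt2c* replicate 1 against 0 to 0.874 elsewhere, *Slc51a*, a subunit of the basolateral bile acid exporter, at 3.98 RPKM there against 0 to 0.292 elsewhere, and *Cyp27a1* at 1.69 RPKM in sg*Trp53* replicate 3. *Baat*, the conjugating enzyme, lay between 0.0748 and 0.328 RPKM.

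Markers of epithelial and mesenchymal state also differed in sg*Kmt2c* replicate 1. The 13 epithelial markers summed to 4266 RPKM in sg*Kmt2c* replicate 1 and to 48.3 to 881 RPKM in the other lines, with 9 of 13 highest there. By the limit of 1 on log2(RPKM + 1), 9 of the 13 were high there, where 11.8% of all genes were. Among the 9, *Tjp3* (26.9 RPKM) and *Cldn4* (1.99 RPKM) reached 1 RPKM only in that line. These genes are thus among those compared only because they were high there. Another 3, *Cldn7*, *Grhl2* and *Ovol2*, had no read there. *Krt18* (2065 against 14.2 to 342 RPKM), *Krt8* (1662 against 9.27 to 431), *Cldn3* (227 against 0 to 83.9) and *Cdh1*, which encodes E-cadherin (191 against 0.306 to 9.86), led the list. The 14 fibroblast and stellate markers summed to 0.282 RPKM in that line, with 12 of 14 at 0 reads, and to 18.8 to 1103 RPKM in the others. By the same limit 7 of the 14 were low in that line, where 13.4% of all genes were. *Col3a1* lay at 0.0672 RPKM there and between 3.37 and 814 elsewhere, and *Col1a2*, *Acta2* and *Postn* had no read there. Of the 10 mesenchymal regulators 8 were low in that line, against 13.4% of all genes. No read was found there for 4 of the 10, *Twist2* among them, while *Vim* was at 3862 RPKM within 2116 to 4806. *Fn1* was at 14.7 against 129 to 650 RPKM and *Cdh2* at 21.8 within 7.62 to 67.6 RPKM. In a bulk library, fewer cells of a type and less RNA per cell cannot be told apart. The part of these markers in the levels of the members was not tested.

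The biliary list was also highest in the line with the most *Hnf4a*. Its 10 markers summed to 3587 RPKM in sg*Kmt2c* replicate 1 and to 196 to 1282 RPKM in the other lines. *Krt19* was at 1866 RPKM there against 7.06 to 223 and *Krt7* at 990 against 0.786 to 94.7 RPKM, while *Spp1* (578 within 46.8 to 682) was not highest there and *Cd24a* (65.2 against 84.7 to 223) was lowest. The 7 hepatoblast markers summed to 19.7 RPKM in that line, with 4 of 7 at 0 reads, and to 76.6 to 1132 in the others. In that line 5 of the 7 were low, where 13.4% of all genes were, and 1 was high, where 11.8% were. *Afp* made up most of the sum there at 19.3 RPKM, against 0.130 to 1.41 elsewhere. *Dlk1*, at 17.4 to 1077 RPKM in the other lines, had no read there. *H19* and *Igf2bp3* were at 0.186 and 0.195 RPKM there and at 0.712 to 46.9 and 5.22 to 19.5 RPKM elsewhere. The endothelial list summed to 0.0596 to 23.5 RPKM and the immune list to 33.5 to 76.6 RPKM, with *Ptprc*, the pan-leukocyte marker, at most 0.0655 RPKM and *Pecam1* at most 0.101 RPKM. In the sg*Trp53* lines *Pdpn* made up most of the endothelial sum, at 11.01, 11.4 and 22.9 of 11.6, 11.5 and 23.5 RPKM. Of the 10 endothelial genes, 9 were under 1 RPKM in every line. The T cell marker *Cd3e* had no read in any library. The immune sum came mainly from *Cd14*, highest at 70.3 RPKM in sg*Kmt2c* replicate 1, *Lyz2* (at most 45.3 RPKM), *Cd68* (at most 7.60) and *Csf1r*, and *Lyve1* and *Flt4* of the endothelial list reached at most 0.570 and 0.302 RPKM.

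Across these marker lists, 2 genes were among the 15 (0.129%) past the adjusted threshold between the genotypes. *Igf2*, a fetal growth factor, fell in the sg*Kmt2c* lines from 14.0, 27.7 and 12.0 RPKM to 0, 0 and 0.946 RPKM (adjusted p = 0.0494, limma). *Pdpn*, podoplanin, fell from 11.01, 11.4 and 22.9 RPKM to 0, 0 and 0.129 RPKM (adjusted p = 0.0246, limma). Both calls were lost without sg*Kmt2c* replicate 1, 2 or 3 (adjusted p of 0.0733 to 0.222, limma), with sg*Kmt2c* replicates 2 and 3 taken as 1 sample (0.146 for both), with a replicate block (0.154 and 0.0771 for *Igf2* and *Pdpn*) and with voom (0.282 and 0.1005). In each fit without an sg*Trp53* line, neither gene passed the filter on low values. With no such filter both calls were lost (0.147 and 0.0623, limma). The call of *Igf2* alone was lost with a pseudocount of 0.1 (0.192) or 0.5 (0.0596). It was also lost with scaling as TPM (0.0564) or by median-of-ratios (0.0512), and with a filter of 1 RPKM in 1 library (0.0526). Both were kept with quantile normalization, eBayes without trend and the added gene lengths. Of the other list genes, *Esrp2*, *Igf2bp3*, *Twist1*, *Csf1r*, *Lyz2* and *Cd14* had an unadjusted p-value under 0.05 only. None of the epithelial (7 tested), biliary (8), fibroblast and stellate (5), mesenchymal (10) or immune (4) genes passed the adjusted threshold, with median log2 fold changes of 1.57, 0.20, -2.04, -1.01 and -1.12. For the 6 hepatoblast genes tested the median was -1.31.

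**Figure D5:**
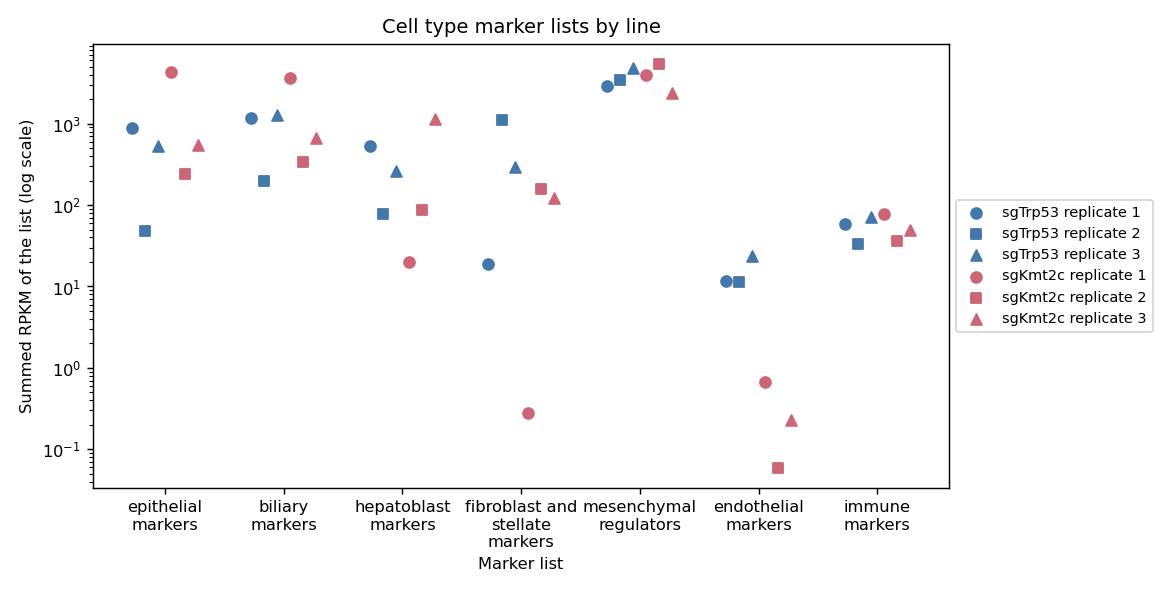
Summed RPKM (logarithmic axis) of 7 marker lists in the 3 sg*Trp53* lines (blue) and the 3 sg*Kmt2c* lines (red), with circles, squares and triangles for replicates 1, 2 and 3. sg*Kmt2c* replicate 1 is highest for the epithelial list (4266 RPKM) and the biliary list (3587) and lowest for the hepatoblast list (19.7) and the fibroblast and stellate list (0.282).

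The genes whose pattern was most like that of each member were taken by Pearson's r of log2(RPKM + 1) over the 6 lines, out of 13400 other genes with at least 1 RPKM in a library. With 6 points that share library and depth, and with 1 line standing apart, r is a description only. For *Hnf4a* they were *Clock*, a circadian factor (r = 0.993), *Tmem37* (0.988) and *Arrdc1* (0.986). *Tmem37* lay at 23.1 RPKM in sg*Kmt2c* replicate 1, 5.71 in replicate 3 and 0 in replicate 2. For *Foxa1* they were *Ppp2r4* (r = 0.996), the pseudogene *Anp32b-ps1* (0.994) and *Ankle1* (0.993), all lowest in sg*Kmt2c* replicate 1. For *Foxa2* they were *Olr1* (r = 0.999), *Dusp13* (0.998) and *Ddc*, aromatic amino acid decarboxylase (0.998), the last at 26.8 RPKM in sg*Kmt2c* replicate 1 and at most 0.604 elsewhere.

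*Foxa3* was followed by *Spata6* (r = 0.995), *Hsd17b10* (0.995) and *Gpt*, alanine aminotransferase (0.992), which lay at 40.6 RPKM in sg*Kmt2c* replicate 1 and 1.34 to 3.19 elsewhere. *Prox1* was followed by *Slc17a2*, *Bco1*, the enzyme that cleaves β-carotene, and *Tcf23* (r = 0.999 each), with *Bco1* at 31.3 RPKM in that line and at most 0.351 elsewhere. As many as 105 genes reached r of 0.99 with *Prox1* and 42 with *Foxa2*, against 0 to 6 for each of the other members. The closest to *Cebpa* were *Rapgefl1* (r = 0.994), *Lyrm7* (0.980) and *Dynlt1b* (0.978). Those closest to *Onecut1* were *Fuk* (0.994), *Hdac6* (0.992) and *Pgls* (0.984), and to *Nr1h4*, *Arhgef28* (0.984), *Ctu1* (0.981) and *Xrcc3* (0.980). None of the 24 genes was itself a member.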

How the data were processed

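RNA-seq of 6 lines, 3 per genotype, was used, and groups were taken from the labels. The values deposited by the authors are RPKM, made by trimming with Trimmomatic, alignment to GRCm38 with STAR and HTSeq counting. A further 6 sample columns were not used, nor was the authors' DESeq2 1.8.2 table of fold changes and p-values. All libraries shared the same lanes. The study's genotype-only contrast was fitted with limma 3.58.1 in R 4.3.3 (eBayes with trend) on log2(RPKM + 1), filter and pseudocount as stated above, Benjamini-Hochberg over all genes. Multiplied by listed length, 100% of values came out as whole reads (tolerance 0.01 of a read), used for voom and the Poisson intervals. Lines are from separate mice by the study's resource table, though 2 of the labels read 2A and 2T1. The fit was tested on simulated data. Alternatives changed the pseudocount, filter, scaling, moderation, gene length, line weighting and lines included.

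The members and gene lists were chosen with earlier results of these data known, and the gene length alternative and the count of low members were added after seeing the data. Named were all members, the 3 genes most alike to each, the 4 highest by mean and those past the threshold in each list, and *Trp53* and *Kmt2c*; other genes were chosen after their values were seen. Some list genes are not reported here by name. Promoters are from RefSeq.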

Additional observations from a re-analysis of the deposited data

How the results depend on the processing

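No member, network factor, hepatocyte target or bile acid gene passed the adjusted threshold under any of the 17 alternatives, or, for the members, under the added gene lengths (0 throughout, also in each fit without a line). Across the alternatives 69 of 72 log2 fold changes of members kept their direction. Relaxed filters, eBayes without trend and the replicate block leave these values unchanged by construction, so there they could not reverse. All 3 reversals came from fits without a line. They were *Cebpa* (0.066) and *Nr1h4* (-0.084) without sg*Trp53* replicate 2 and *Foxa1* (0.79) without sg*Kmt2c* replicate 1. Leaving out each line gave a median log2 fold change of the members between -0.32 and 0.36, 0.42 to 5.17 for *Hnf4a*, -1.99 to 0.79 for *Foxa1*, -0.98 to 0.066 for *Cebpa* and -0.084 to 1.02 for *Nr1h4*. With filters that let all 8 members in, the median was 0.42. The lowest adjusted p of any member was 0.342 (*Hnf4a* without sg*Kmt2c* replicate 2, limma). Members high in sg*Kmt2c* replicate 1 numbered 5 with a pseudocount of 0.1, and members low there 1 when set against the nearest other line.

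Lines with the same replicate number share only a number (correlations of their deviations 0.19, 0.40 and 0.03). With a replicate block the median log2 fold change of the members was 0.03, 0 members passed, and the count over all genes went from 15 to 0. Depth limits *Onecut1*, *Prox1*, *Foxa2* and *Foxa3*, which had few reads in most lines.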
